A study of Mus musculus with 15 samples.

Results

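The genes examined here are 10 members of the pathway by which leukaemia inhibitory factor (LIF) acts on mouse pluripotent cells: the cytokine gene Lif, the receptor genes Lifr and Il6st, the transcription factor gene Stat3, and 6 genes reported to respond to it, Socs2, Socs3, Gbx2, Pim1, Pim3 and Ier3. They were chosen by name, with earlier results of these data known. Every probe set annotated to one of them alone was taken, which gave 29 of the 45101 probe sets on the array and 10 of the 18193 genes measured. RNA of 5 kinds of cells had been hybridised to Affymetrix mouse arrays, 3 arrays a kind. The B6D2F1 genetic background is shared by mouse embryonic fibroblasts (MEF), by CL11, which is an embryonic stem (ES) cell line, and by IP14D-1 and IP20D-3, which are induced pluripotent stem (iPS) cell lines, whereas the iPS line IP14D-101 carries C57x129S2. Per the design text, fibroblasts from which iPS cells were derived stand as the MEF group, and a group holds 3 biological replicates. The MEF group is labelled B6D2F1, so it may not hold the source cells of IP14D-101, and every value of IP14D-101 against MEF also compares genetic backgrounds. Each pluripotent group is a single line, so a difference between groups is a difference between lines, and for IP14D-101 line and genetic background cannot be told apart. All 4 lines were kept on feeder fibroblasts, treated with mitomycin C, and LIF at 1000 u/ml, in medium with 15% fetal bovine serum or 20% serum replacement. The labels do not say which of these media a line had, nor how MEF were grown, so the LIF in the medium is shared by the lines and its part in any comparison with MEF was not tested.

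LIF binds the LIF receptor chain, which then pairs with gp130, the shared signalling chain of the interleukin-6 family of cytokines and the product of Il6st. Janus kinases bound to these chains phosphorylate STAT3, which enters the nucleus and switches on target genes, among them SOCS3, an inhibitor that binds gp130 and damps the signal. In mouse ES and iPS cells this pathway holds back differentiation, and in other cells gp130 also serves cytokines such as interleukin-6. RNA levels on an array do not measure how much STAT3 is phosphorylated.

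The 250 bases upstream of the annotated transcription start are shown for Socs3, Gbx2 and Ier3, because these 3 genes were split alike among the lines, as described further on. They come from RefSeq on GRCm38.p6, and capitals mark a match to TTCNNNGAA, the spaced inverted repeat that STAT factors prefer. Socs3 lies on the minus strand and its window is chr11:117969367-117969616, the Gbx2 window on the minus strand is chr1:89931177-89931426, and the Ier3 window on the plus strand is chr17:35821463-35821712.
Socs3: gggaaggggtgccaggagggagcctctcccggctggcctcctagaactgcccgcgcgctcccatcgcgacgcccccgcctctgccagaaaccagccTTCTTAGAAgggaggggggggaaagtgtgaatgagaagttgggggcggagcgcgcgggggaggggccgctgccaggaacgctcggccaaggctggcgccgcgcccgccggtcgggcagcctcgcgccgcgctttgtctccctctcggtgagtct
Gbx2: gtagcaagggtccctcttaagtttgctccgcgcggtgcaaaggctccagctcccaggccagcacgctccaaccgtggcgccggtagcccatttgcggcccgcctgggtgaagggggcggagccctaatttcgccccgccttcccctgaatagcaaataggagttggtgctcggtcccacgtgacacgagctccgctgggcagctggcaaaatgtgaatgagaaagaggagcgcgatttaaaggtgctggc
Ier3: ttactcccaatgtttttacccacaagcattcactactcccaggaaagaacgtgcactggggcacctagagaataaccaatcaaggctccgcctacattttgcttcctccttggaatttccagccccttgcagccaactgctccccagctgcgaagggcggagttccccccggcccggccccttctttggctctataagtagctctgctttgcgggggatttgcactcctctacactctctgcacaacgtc
The Socs3 window held 1 such match, which began 154 bases upstream of the start, and the other windows held none. RefSeq windows were found for 9 of the 10 genes, 11 windows in all, and Socs2 was not matched. Of the 11 windows 1 held TTCNNNGAA, against 7.02% of 32851 windows of the same length. The motif reads alike on both strands, cannot overlap the E-box searched next, and is a match of letters only. The E-box CACGTG, searched on both strands, was found in the windows of Gbx2, beginning 74 bases upstream, and Pim1, and in 6.02% of all windows.

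Values are log2 of the deposited signal, scaled to a common array mean, plus 16. The background level, the 95th percentile of 39 olfactory receptor genes, was 11.04 on this scale. Each gene was read from its probe set with the highest mean, and all 50 group means, of 10 genes in 5 groups, lay above background. Errors of levels are standard deviations over 3 arrays, and those of changes are standard errors from a limma fit over all genes. A change was called at an adjusted p under 0.05 by Benjamini and Hochberg over 18193 genes. The arrays' trimmed mean signals before scaling ran from 11141.8 to 20355.5. As checks of identity, 10 of 10 pluripotency markers were above background in every line and 1, Utf1, in MEF, while 12 of 12 fibroblast markers were above it in MEF and 3 to 7 in the lines.

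All 10 genes differed between MEF and every pluripotent line. Lifr, Socs2, Socs3, Gbx2, Pim1 and Pim3 were higher in each line, and Lif, Il6st, Stat3 and Ier3 were lower. Each line thus had 10 of 10 genes called, 6 higher and 4 lower, and in none did the arrays of a line overlap those of MEF. Of all genes, 54.1% were called for CL11 against MEF (30.3% higher, 23.8% lower, 60.8% without overlap) and 55.1% for IP14D-101 (30.4% higher, 24.7% lower, 60.0% without overlap). For IP14D-1 the shares were 52.8% (29.9% higher, 22.9% lower, 60.6% without overlap), and for IP20D-3 54.1% (30.4% higher, 23.7% lower, 60.5% without overlap). More than every second gene of the array was therefore called as well. The median size of the members' log2 changes was 1.83 in CL11 (0.87 over all genes), 1.90 in IP14D-101 (0.90), 2.45 in IP14D-1 (0.83) and 2.19 in IP20D-3 (0.87). These 4 comparisons use the same 3 MEF arrays, so the shared directions are not independent of one another. Of the 40 calls, 36 were kept under every alternative processing and with each array left out.

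**Figure D1:**
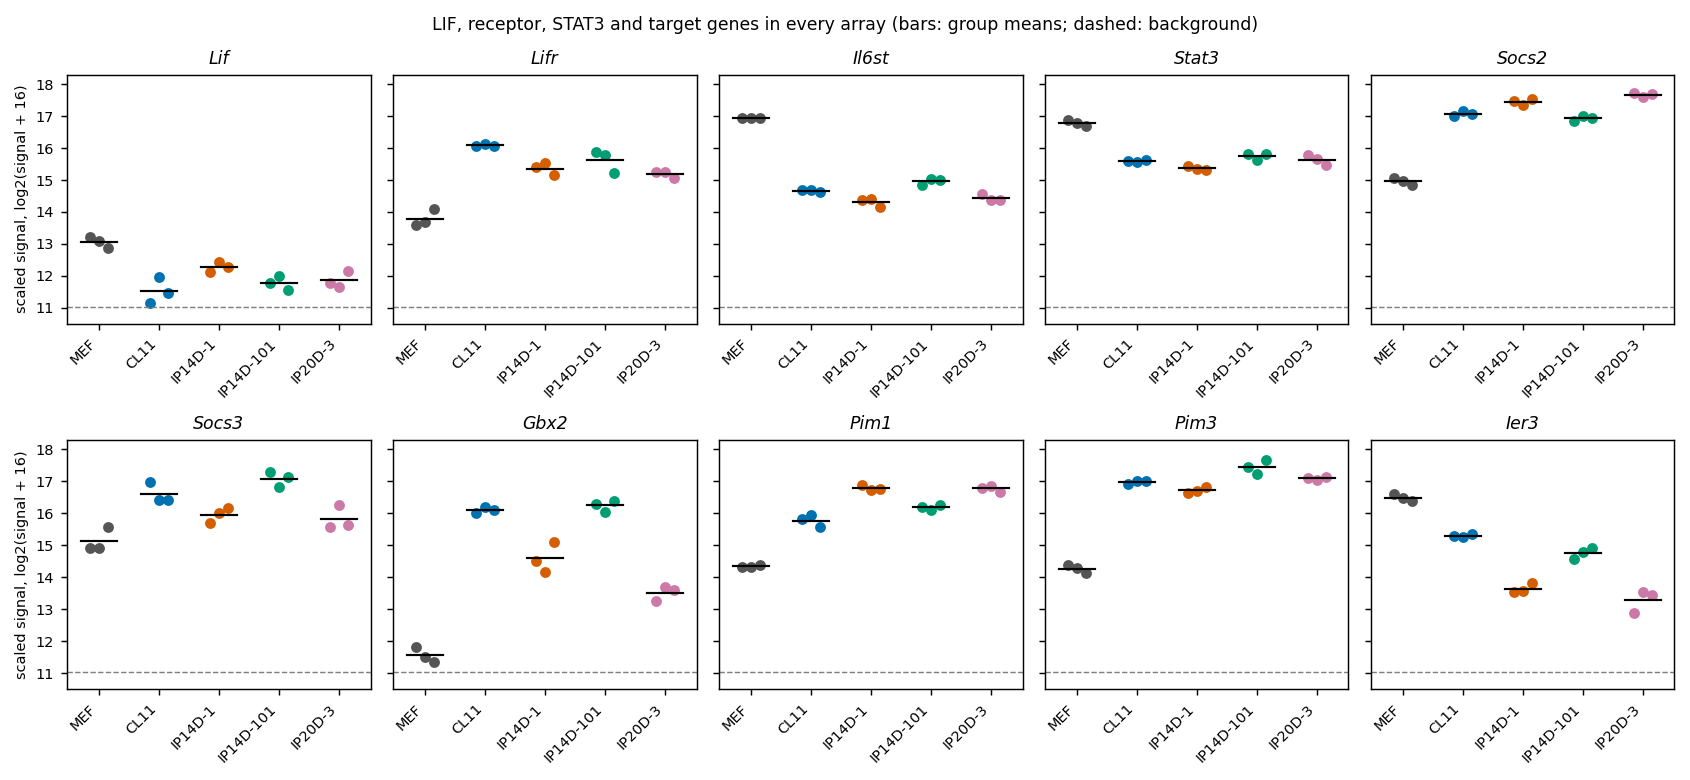
Log2(scaled signal + 16) of the 10 genes on each of the 15 arrays, with a bar at each group mean (3 arrays) and a dashed line at the background level of 11.04. MEF stand apart from every line in all 10 panels, and Gbx2 and Ier3 spread most among the lines.

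Lif, the ligand gene, was lower in the lines than in MEF. The MEF arrays measured 13.22, 13.10 and 12.87, the CL11 arrays 11.14, 11.98 and 11.45, and the IP14D-1 arrays 12.13, 12.42 and 12.28. IP14D-101 gave 11.77, 11.997 and 11.57, and IP20D-3 gave 11.79, 11.64 and 12.14. No line array reached the lowest MEF array, while the lines overlapped one another except IP14D-1, which lay above CL11 and IP14D-101. The means of CL11, IP14D-101 and IP20D-3, at 11.52, 11.78 and 11.86, were just above the background of 11.04. The change against MEF was -1.54 ± 0.26 in CL11 (adjusted p = 4.63e-05), -1.29 ± 0.26 in IP14D-101 (0.000308), -0.79 ± 0.26 in IP14D-1 (0.0157) and -1.21 ± 0.26 in IP20D-3 (0.000564). A second Lif probe set lay below background in all 5 groups, and averaging it in ended the calls for CL11, IP14D-1 and IP20D-3. The IP14D-1 call was also lost without MEF replicate 1 or IP14D-1 replicate 1 (adjusted p up to 0.0617). Among the 6 pairs of lines 1 was called, IP14D-1 above CL11 by 0.75 ± 0.26 (adjusted p = 0.0429). This call was lost on leaving out any array of either line but CL11 replicate 2 (adjusted p up to 0.172). It was also lost with median scaling (0.207), quantile normalization (0.152) and the probe sets averaged (0.372). The summed signal of the fibroblast markers was also higher in MEF than in the lines. It was 5183952 to 5678580 in MEF, 24054 to 28798 in CL11, 29674 to 32040 in IP14D-101, 40958 to 42610 in IP14D-1 and 15780 to 19734 in IP20D-3. Among the lines this sum and the Lif mean were both highest in IP14D-1, while the sum was lowest in IP20D-3 and Lif in CL11. The part of feeder RNA in the Lif levels of the lines was not tested, and in bulk RNA fewer cells of a type and less RNA per cell cannot be told apart.

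Lifr, which encodes the chain that binds LIF, was higher in every line. MEF measured 13.58, 13.68 and 14.08, CL11 16.06, 16.12 and 16.06, and IP14D-1 15.40, 15.53 and 15.15. The IP14D-101 arrays read 15.89, 15.77 and 15.22, and those of IP20D-3 read 15.26, 15.24 and 15.07. CL11 was the highest group and its arrays overlapped no other. Against MEF, Lifr was 4.92-fold higher in CL11 (2.30 ± 0.15, adjusted p = 1.58e-10), 3.60-fold in IP14D-101, 2.98-fold in IP14D-1 and 2.66-fold in IP20D-3 (1.41 ± 0.15, adjusted p = 1.57e-07). Among the lines it was lower than in CL11 by 0.72 ± 0.15 in IP14D-1 (adjusted p = 0.00168) and by 0.89 ± 0.15 in IP20D-3 (0.000301), the former not called without scaling of the arrays (0.176). IP14D-101 was not called different from CL11 (-0.45, 95% interval -0.77 to -0.13, adjusted p = 0.0648), although it was without IP14D-101 replicate 1 (0.028). IP20D-3 was called below IP14D-101 (-0.44 ± 0.15, adjusted p = 0.0451), a call lost on leaving out any array of either line but IP14D-101 replicate 3 (up to 0.212). Without IP14D-101 replicate 3, the lowest of its group, IP14D-101 was called above IP14D-1 (adjusted p = 0.0125), from 0.27 ± 0.15 and an adjusted p of 0.211 with it. Of the 3 Lifr probe sets, those called against MEF were all higher: 3 of 3 measured in CL11, 2 of 2 in IP14D-101, 2 of 3 in IP14D-1 and 1 of 2 in IP20D-3. A dimmer Lifr probe set separated the iPS lines further, in the fit over probe sets. It put IP14D-101 above IP14D-1 by 1.08 (adjusted p = 0.00267) and IP20D-3 below IP14D-101 (-1.18, 0.00166), both without overlap. The remaining probe set, near or below background, was called in neither comparison.

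Il6st, the gp130 gene, went the other way from Lifr. Its 3 MEF arrays, at 16.94, 16.93 and 16.93, were the most even group of any member. CL11 measured 14.68, 14.69 and 14.61, IP14D-1 14.36, 14.42 and 14.14, IP14D-101 14.84, 15.03 and 15.00, and IP20D-3 14.55, 14.36 and 14.39. Every line array was well below MEF, and the IP14D-101 arrays were above all other line arrays. The level was 4.83-fold lower in CL11 than in MEF (-2.27 ± 0.089, adjusted p = 9.32e-14), 3.94-fold lower in IP14D-101, 6.16-fold lower in IP14D-1 and 5.64-fold lower in IP20D-3. All 4 probe sets of Il6st were called lower in each of the 4 lines. IP14D-101 was higher than IP14D-1 by 0.64 ± 0.089 (adjusted p = 2.87e-05), with 4 of 4 probe sets called, although without scaling of the arrays the change was 0.16 (0.364), and IP20D-3 was lower than IP14D-101 by 0.52 ± 0.089 (0.00032). IP14D-1 was lower than CL11 by 0.35 ± 0.089 (adjusted p = 0.00686), in 1 of 4 probe sets, and was not called without scaling or with the probe sets averaged. IP14D-101 was above CL11 by 0.29 ± 0.089 (adjusted p = 0.0405), lost without scaling and on leaving out any array of either line but IP14D-101 replicate 1 (up to 0.133).

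Stat3, the transcription factor that the receptor activates, was lower in the lines by a smaller amount. MEF gave 16.87, 16.78 and 16.69. The lines gave 15.60, 15.55 and 15.62 in CL11, 15.43, 15.36 and 15.31 in IP14D-1, 15.82, 15.64 and 15.81 in IP14D-101, and 15.78, 15.66 and 15.48 in IP20D-3. The lines lay close together and IP14D-1 was the lowest, below all CL11 arrays. Against MEF the change was -1.19 ± 0.083 in CL11 (adjusted p = 3.54e-10), -1.03 ± 0.083 in IP14D-101 (2.92e-09), -1.41 ± 0.083 in IP14D-1 (3.25e-11) and -1.14 ± 0.083 in IP20D-3 (6.54e-10). Of the 4 probe sets, 3 were called lower in IP14D-101 and 2 in each other line. The pair with the highest signals moved alike, while another stayed between 11.38 and 11.95, near background, in all groups. Between lines, IP14D-101 was above IP14D-1 by 0.39 ± 0.083 (adjusted p = 0.00158), which turned to -0.46 (adjusted p = 0.259) when all 4 probe sets were averaged and to -0.09 without scaling of the arrays. IP20D-3 was above IP14D-1 by 0.27 ± 0.083 (adjusted p = 0.0458), a call lost on leaving out any array of either line but IP20D-3 replicate 3 (up to 0.205), and the change was -0.27 without scaling.

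**Figure D2:**
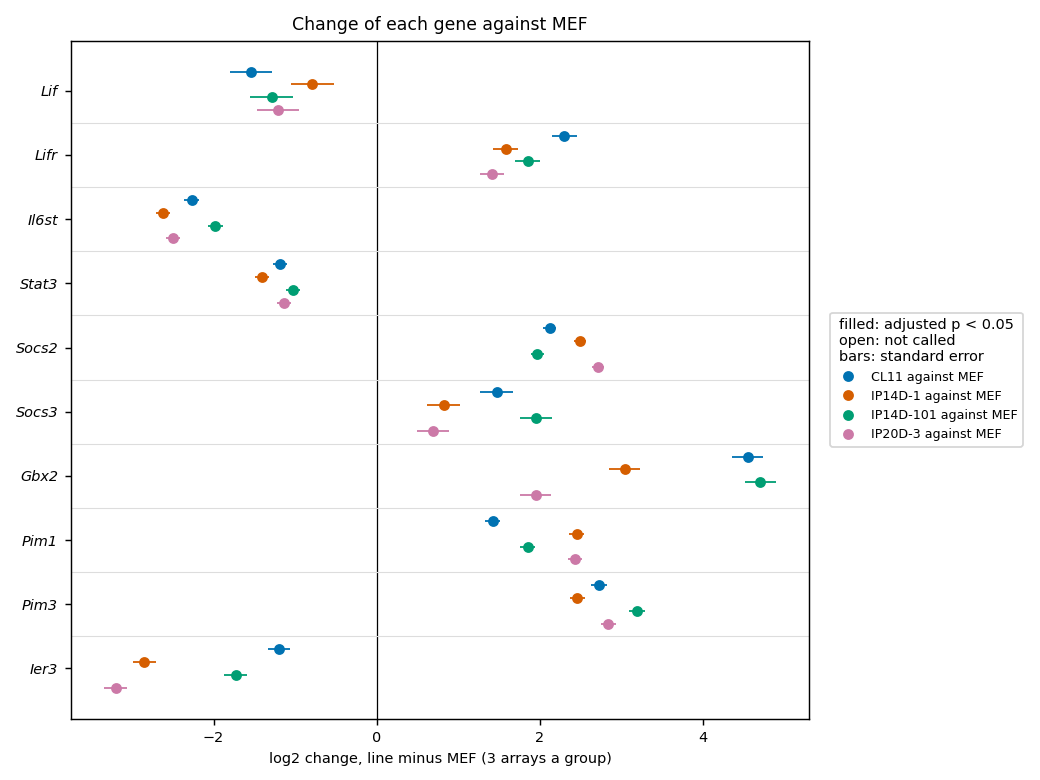
Log2 change of each gene in each pluripotent line minus MEF, with standard errors from the limma fit (3 arrays a group). All 40 changes were called: 6 genes lie to the right of 0 and 4 to the left in every line, from 4.70 for Gbx2 in IP14D-101 to -3.20 for Ier3 in IP20D-3.

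Socs3, the feedback inhibitor of gp130, was higher in the lines, and its level split them. MEF measured 14.93, 14.91 and 15.57, CL11 16.97, 16.43 and 16.42, and IP14D-101 17.29, 16.83 and 17.15. The other iPS lines were lower, at 15.70, 15.995 and 16.16 in IP14D-1 and 15.58, 16.27 and 15.63 in IP20D-3. All arrays of CL11 and IP14D-101 lay above all arrays of IP14D-1 and IP20D-3, and these lay above MEF by a narrow margin. Socs3 was 2.77-fold higher than MEF in CL11 (1.47 ± 0.20, adjusted p = 3.89e-06) and 3.87-fold in IP14D-101 (1.95 ± 0.20, 9.03e-08). In IP14D-1 it was higher by 0.82 ± 0.20 (adjusted p = 0.00193) and in IP20D-3 by 0.69 ± 0.20 (0.00655), and the latter was not called without IP20D-3 replicate 2 (0.0575) or without scaling of the arrays (0.06, 0.865). Of its 3 probe sets, 2 were called higher in IP14D-1 than in MEF and 3 in each other line. IP14D-101 exceeded IP14D-1 by 1.14 ± 0.20 (adjusted p = 0.000325) and IP20D-3 by 1.26 ± 0.20 (0.000161), each in 3 of 3 probe sets. CL11 exceeded IP14D-1 by 0.65 ± 0.20 (adjusted p = 0.0237) and IP20D-3 by 0.78 ± 0.20 (0.00906), in 3 and 2 of 3 probe sets. In the probe set not called, IP20D-3 differed from CL11 by -0.23 (adjusted p = 0.236) and their arrays overlapped. The call for IP14D-1 was lost without CL11 replicate 1, IP14D-1 replicate 1 or IP14D-1 replicate 2, and that for IP20D-3 without CL11 replicate 1 or IP20D-3 replicate 1. Both were lost without a variance trend (0.0905 and 0.0518), and without scaling the change for IP14D-1 was -0.33 (0.358). The probe set used is of a type that can cross-hybridise. Read from the probe set of the gene that is not of this type, an alternative chosen after seeing the data, IP14D-101 was above CL11 by 0.57 (adjusted p = 0.003) and IP20D-3 above IP14D-1 by 0.40 (0.0354), where the main values were 0.48 (0.146) and -0.12 (0.805). The mean over the 3 probe sets, which is not among the alternatives added later, also put IP14D-101 above CL11, by 0.61 (adjusted p = 0.00238).

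Socs2, a relative of Socs3 best known for damping growth hormone signals, was also higher in the lines but in another order. MEF gave 15.06, 14.98 and 14.83, CL11 16.99, 17.15 and 17.08, and IP14D-101 16.84, 17.01 and 16.93. IP14D-1 gave 17.47, 17.34 and 17.53, and IP20D-3 gave 17.72, 17.59 and 17.70. IP14D-1 and IP20D-3, the lines with less Socs3, had the most Socs2, and their arrays lay above all others. The rise over MEF was 4.34-fold in CL11 (2.12 ± 0.077, adjusted p = 3.14e-14), 3.92-fold in IP14D-101, 5.63-fold in IP14D-1 and 6.56-fold in IP20D-3 (2.71 ± 0.077, adjusted p = 8.92e-16). In each line 5 of the 5 probe sets above background were called higher than in MEF, and the remaining probe set was below background throughout. IP20D-3 was not called different from IP14D-1 (0.22, adjusted p = 0.0844). In the other probe sets above background this change was -0.01 to -0.16, so the order of these lines rests on the probe set used. IP20D-3 was higher than IP14D-101 by 0.74 ± 0.077 (adjusted p = 1.76e-06) and than CL11 by 0.60 ± 0.077 (1.66e-05). IP14D-1 was higher than CL11 by 0.38 ± 0.077 (adjusted p = 0.00137), and IP14D-101 lower than IP14D-1 by 0.52 ± 0.077 (5.38e-05), in 5 of 5 probe sets each. With arrays scaled to their medians these last 2 changes became 0.13 (adjusted p = 0.479) and -0.16 (0.355).

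Gbx2, a homeobox transcription factor reported downstream of STAT3 in mouse ES cells, had a single probe set and the largest change of the 10 genes against MEF in CL11, IP14D-1 and IP14D-101, but not in IP20D-3. MEF, at 11.83, 11.49 and 11.34, were just above background. CL11 gave 16.01, 16.21 and 16.10, IP14D-101 16.30, 16.05 and 16.40, IP14D-1 14.50, 14.16 and 15.11, and IP20D-3 13.25, 13.68 and 13.60. The groups fell into a clear order: CL11 and IP14D-101 overlapped at the top, then came IP14D-1, then IP20D-3, then MEF. Gbx2 was 23.4-fold higher than MEF in CL11 (4.55 ± 0.19, adjusted p = 2.15e-13) and 25.9-fold in IP14D-101 (4.70 ± 0.19, 1.34e-13). It was 8.21-fold higher in IP14D-1 (3.04 ± 0.19, adjusted p = 7.65e-11) and 3.88-fold in IP20D-3 (1.95 ± 0.19, 3.76e-08). Relative to CL11 it was 2.85-fold lower in IP14D-1 (-1.51 ± 0.19, adjusted p = 1.26e-05) and 6.04-fold lower in IP20D-3 (-2.60 ± 0.19, 2.1e-08). IP20D-3 was also 6.69-fold below IP14D-101 (-2.74 ± 0.19, adjusted p = 1.59e-08) and 2.12-fold below IP14D-1 (-1.08 ± 0.19, 0.00121). IP14D-101 and CL11 were not called different, with a change of 0.15 and a 95% interval of -0.25 to 0.54. All 5 called differences between lines held under every alternative and with each array left out.

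Pim1, a serine/threonine kinase that promotes survival and is induced by STAT factors, rose in every line and most in IP14D-1 and IP20D-3. The MEF arrays, 14.33, 14.32 and 14.39, were nearly equal. CL11 read 15.81, 15.94 and 15.56, IP14D-101 16.20, 16.12 and 16.25, IP14D-1 16.90, 16.73 and 16.76, and IP20D-3 16.80, 16.86 and 16.68. IP14D-1 and IP20D-3 overlapped at the top, and IP14D-101 lay between them and CL11. The fold over MEF was 2.68 in CL11 (1.42 ± 0.089, adjusted p = 7.42e-11), 3.60 in IP14D-101, 5.46 in IP14D-1 (2.45 ± 0.089, 3.76e-14) and 5.40 in IP20D-3. IP14D-1 exceeded CL11 by 1.03 ± 0.089 (adjusted p = 1.94e-07), IP20D-3 exceeded it by 1.01 ± 0.089 (2.27e-07) and IP14D-101 by 0.42 ± 0.089 (0.00404). IP20D-3 was above IP14D-101 by 0.59 ± 0.089 (adjusted p = 9.61e-05), and IP14D-101 below IP14D-1 by 0.60 ± 0.089 (5.45e-05). Both Pim1 probe sets were called in each of these comparisons. The last change became -0.24 (adjusted p = 0.107) with median scaling, and the change of IP14D-101 against CL11 became 0.27 (0.24) without scaling.

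Pim3, a kinase of the same family, was the most abundant in IP14D-101. Its arrays measured 14.37, 14.29 and 14.12 in MEF, 16.92, 17.01 and 17.01 in CL11, and 16.64, 16.69 and 16.83 in IP14D-1. IP14D-101 measured 17.45, 17.22 and 17.68, and IP20D-3 17.12, 17.04 and 17.14. The IP14D-101 arrays lay above all others, the IP14D-1 arrays were the lowest of the lines, and CL11 lay between them, below IP20D-3. IP20D-3 was not called different from CL11 (0.12, adjusted p = 0.447). In the other bright probe set this change was -0.14 and the arrays overlapped. Pim3 was 9.13-fold higher in IP14D-101 than in MEF (3.19 ± 0.097, adjusted p = 2.51e-15), 7.17-fold in IP20D-3, 6.60-fold in CL11 and 5.50-fold in IP14D-1, with 3 of 3 probe sets called in each. IP14D-101 exceeded IP14D-1 by 0.73 ± 0.097 (adjusted p = 1.88e-05) and CL11 by 0.47 ± 0.097 (0.00359), and these calls were lost without scaling of the arrays. The call against CL11 was also lost with the probe sets averaged (0.41, adjusted p = 0.138). IP14D-101 exceeded IP20D-3 by 0.35 ± 0.097 (adjusted p = 0.013), lost without IP14D-101 replicate 3 or IP20D-3 replicate 2. That call was also lost with the probe sets averaged (0.107) or without a variance trend (0.0575). IP20D-3 exceeded IP14D-1 by 0.38 ± 0.097 (adjusted p = 0.0184), lost without IP14D-1 replicate 1 or 2 or IP20D-3 replicate 1 or 3 (up to 0.085). It was also lost with median scaling (0.0522), the probe sets averaged (0.849) or no variance trend (0.0852), and the change was -0.16 without scaling. IP14D-1 and CL11 were not called different (-0.26, 95% interval -0.47 to -0.06, adjusted p = 0.0579), but were without IP14D-1 replicate 3 (0.042), with median scaling (-0.51, 0.0166), over genes above background alone (-0.26, 0.0456) and on the probe set not marked as cross-hybridising (-0.57, 0.000105), again an alternative chosen after seeing the data.

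Ier3, an immediate early gene that responds to stress and cytokines, was the only one of the 6 target genes that was lower in every line than in MEF. MEF gave 16.59, 16.48 and 16.40, CL11 15.28, 15.27 and 15.34, and IP14D-101 14.58, 14.79 and 14.91. IP14D-1 gave 13.53, 13.56 and 13.83, and IP20D-3 12.88, 13.53 and 13.46. The order ran from MEF through CL11 and IP14D-101 to IP14D-1 and IP20D-3 with no overlap, but at the last step the lowest IP14D-1 array and the highest IP20D-3 array were both at 13.53. The fall from MEF was 2.29-fold in CL11 (-1.20 ± 0.14, adjusted p = 5.65e-07), 3.32-fold in IP14D-101 (-1.73 ± 0.14), 7.21-fold in IP14D-1 (-2.85 ± 0.14) and 9.21-fold in IP20D-3 (-3.20 ± 0.14, adjusted p = 4.8e-13). Compared with CL11, Ier3 was lower by 1.65 ± 0.14 in IP14D-1 (adjusted p = 1.76e-07) and by 2.01 ± 0.14 in IP20D-3 (1.44e-08). IP14D-101 exceeded IP14D-1 by 1.12 ± 0.14 (adjusted p = 1.15e-05) and IP20D-3 by 1.47 ± 0.14 (7.77e-07). The smaller step from CL11 down to IP14D-101, -0.53 ± 0.14 (adjusted p = 0.0186), was lost without any 1 CL11 array or IP14D-101 replicate 1 (up to 0.085) and with median scaling (0.154). IP14D-1 and IP20D-3 were not called different (-0.35, 95% interval -0.65 to -0.05, adjusted p = 0.143).

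**Figure D3:**
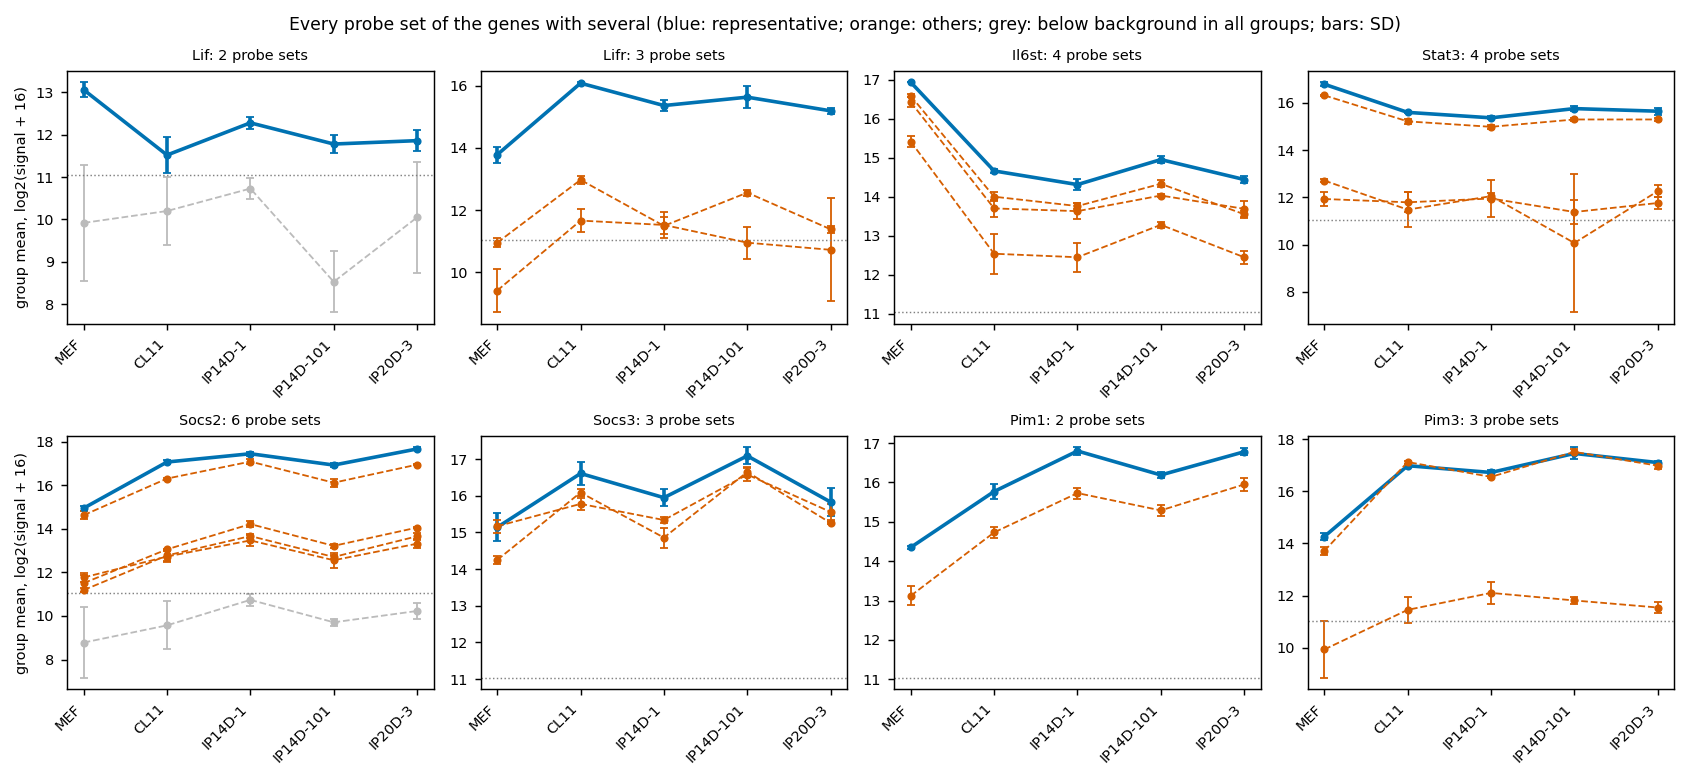
Group means with standard deviations (3 arrays) of every probe set of the 8 genes that have several, on the log2 scale, with the background level dotted. The probe sets of Il6st, Pim1 and Socs2 above background share their direction against MEF, but within each gene they differ in the order of IP14D-1 and IP20D-3. A Lif and a Socs2 probe set stay below background, and 2 dim Stat3 probe sets do not follow the brighter pair.

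Comparisons between lines asked how far the iPS lines resemble the ES line and one another in this pathway. In IP14D-1 against CL11, 8 of the 10 genes were called, Lif, Socs2 and Pim1 higher and Lifr, Il6st, Socs3, Gbx2 and Ier3 lower, beside 24.3% of all genes (11.7% higher, 12.6% lower). In IP14D-101 against CL11, 4 were called, Il6st, Pim1 and Pim3 higher and Ier3 lower, beside 11.5% of all genes (6.05% higher, 5.45% lower). In IP20D-3 against CL11, 6 were called, Socs2 and Pim1 higher and Lifr, Socs3, Gbx2 and Ier3 lower, beside 21.9% (10.6% higher, 11.3% lower). Thus Pim1 was higher and Ier3 lower in every iPS line than in the ES line. In IP14D-101 against IP14D-1, 8 were called, all but Socs2 and Pim1 of them higher, beside 28.0% of all genes (14.9% higher, 13.1% lower). In IP20D-3 against IP14D-1, 3 were called, Stat3 and Pim3 higher and Gbx2 lower, beside 9.19% (4.87% higher, 4.32% lower). In IP20D-3 against IP14D-101, 8 were called, Socs2 and Pim1 higher and 6 lower, beside 23.5% (11.0% higher, 12.5% lower). Gbx2 was called in each pair but IP14D-101 with CL11. Groups did not overlap for 10 genes in IP14D-1 against CL11 (41.1% of all genes), 6 in IP14D-101 against CL11 (28.2%) and 8 in IP20D-3 against CL11 (37.9%). Among the iPS lines they did not overlap for 9 in IP14D-101 against IP14D-1 (41.4%), 5 in IP20D-3 against IP14D-1 (28.8%) and 7 in IP20D-3 against IP14D-101 (35.8%). The median size of the members' changes from CL11 was 0.69 for IP14D-1 (0.40 over all genes), 0.69 for IP20D-3 (0.38) and 0.36 for IP14D-101 (0.31). Within the iPS lines it was 0.62 for IP14D-101 against IP14D-1 (0.43 over all genes), 0.25 for IP20D-3 against IP14D-1 (0.29) and 0.55 for IP20D-3 against IP14D-101 (0.40). In the members as in all genes, the fewest calls came from the pairs IP14D-101 with CL11 and IP20D-3 with IP14D-1. Of these 37 calls in 60 comparisons of a gene between lines, 18 held under every alternative and with each array left out, and none of the 4 calls between IP14D-101 and CL11 did.

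**Figure D4:**
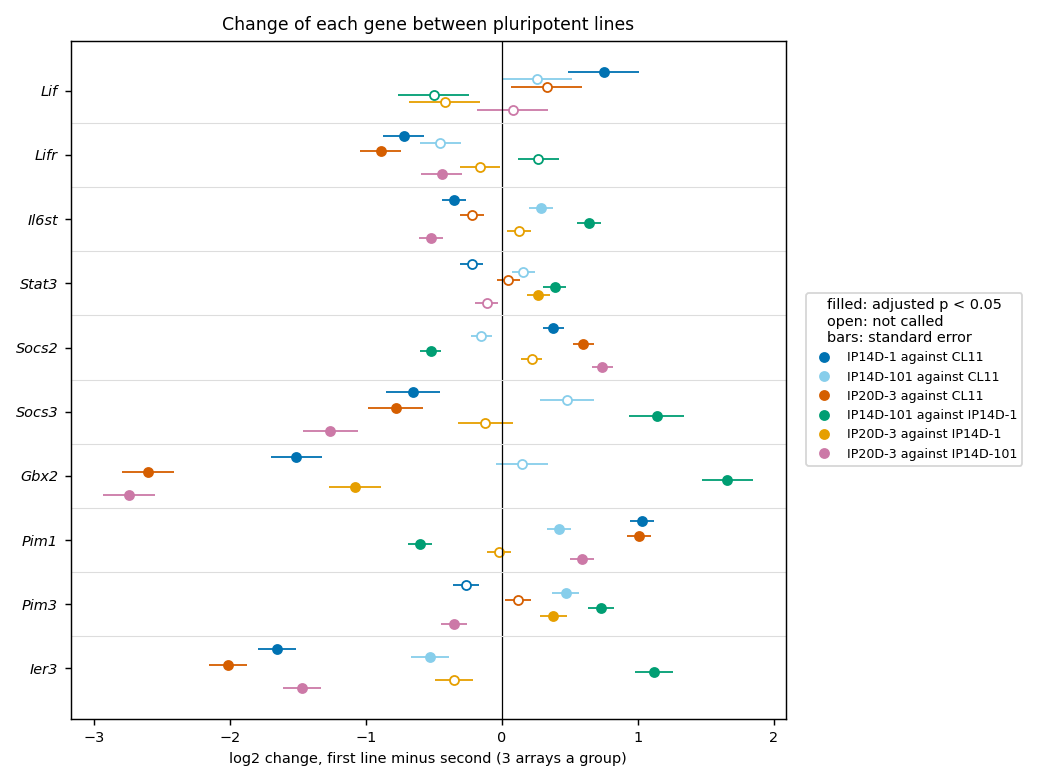
Log2 change of each gene between pairs of pluripotent lines, with standard errors (3 arrays a group), filled where the adjusted p is under 0.05. The widest spreads are those of Gbx2, from -2.74 to 1.66, and Ier3, from -2.01 to 1.12, and Lif has 1 filled point of 6.

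Gbx2, Socs3 and Ier3 were each called higher in CL11 and in IP14D-101 than in IP14D-1 and IP20D-3, and Pim1 and Socs2 were each called lower. Most listed markers of primitive endoderm, an early extraembryonic cell type, moved with this split. Their list was chosen with earlier results of these data known, so it is no independent check. Of 12 such markers, 10 were above background in CL11 and in IP14D-101, 6 in IP14D-1 and 4 in IP20D-3. Their summed signal was 293298 to 311051 in CL11 and 220204 to 240602 in IP14D-101, against 36746 to 38448 in IP14D-1 and 38036 to 41851 in IP20D-3, and 115281 to 126957 in MEF. In IP14D-1 and IP20D-3, Sox7, Dab2, Amn and Lama1 were above background in both and Gata4 (11.45) and Hnf4a (11.71) in IP14D-1, while Gata6, Sox17, Foxa2, Cubn and Pdgfra were below it in both. Hnf4a did not move with the split, being below background in CL11 (10.65) and IP14D-101 (10.07). Trophoblast markers above background numbered 5 of 8 in CL11, 6 in IP14D-1 and 4 in each of the other lines. The ratio of 3' to 5' signal of the actin control, which rises as RNA degrades, was 1.14 to 1.17 in MEF, 1.19 to 1.22 in CL11, 1.16 to 1.29 in IP14D-101, 1.32 to 1.39 in IP14D-1 and 1.25 to 1.30 in IP20D-3. This actin ratio was lower in CL11 than in IP14D-1 and IP20D-3, and lower in IP14D-101 than in IP14D-1, while IP14D-101 and IP20D-3 overlapped. The ratio of the Gapdh control did not follow the split, at 0.82 in MEF, 0.80 to 0.83 in CL11, 0.77 to 0.81 in IP14D-101, 0.84 to 0.85 in IP14D-1 and 0.79 to 0.80 in IP20D-3. The part of other cell types and of RNA quality in these differences was not tested.

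Outside the 10 genes, 61 of 67 other genes listed for the pathway were measured. The other ligands of gp130 receptors were lower or not called in every line: of 6 measured, 4 were lower in CL11 and 3 in each iPS line, and none was higher. Ebi3 was below background in all 5 groups, and Osm in all but CL11 (11.04). Ligands above background in MEF or the line thus numbered 5 for CL11 and 4 for each iPS line. Of all genes 23.8% were lower in CL11 and 22.9% to 24.7% in the iPS lines. In either direction 52.8% to 55.1% were called, near the share of the 6 ligands called in the iPS lines. Il6, the founding ligand of the family, was at 13.92 in MEF and below background in every line, which makes it at least 7.32-fold lower for IP14D-1 and at least 7.38-fold lower for the others. Il11 was at least 2.17-fold lower and Clcf1 at least 3.12-fold lower in each. Of 8 macrophage markers 8 were above background in MEF and 2 to 3 in a line, and their summed signal was 84450 to 88280 in MEF and 11885 to 32054 in the lines. One of them, Cd68, had a higher mean in every line (12.42 to 14.32) than in MEF (12.04), and their part in the ligand levels was not tested. Of 4 receptors measured, Osmr, the chain that pairs with gp130 for oncostatin M, was lower in all 4 lines. It fell from 16.85 in MEF to below background, at least 52.8-fold in IP14D-1 and at least 56.0-fold in the others. Cntfr, the receptor of ciliary neurotrophic factor, was higher in IP14D-1 by 1.10 ± 0.19 (adjusted p = 5.33e-05) and in IP14D-101 by 0.80 ± 0.19 (0.00121).

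Among 13 kinases and adaptors, 5 were higher and 6 lower in CL11 than in MEF, 3 and 8 in IP14D-1, and 3 and 7 in each remaining line, where 29.9% to 30.4% of all genes were higher and 22.9% to 24.7% lower. Gab1, an adaptor that links gp130 to the ERK pathway, was the highest riser, at 12.1-fold in CL11, 15.1-fold in IP14D-101, 12.2-fold in IP14D-1 and 12.1-fold in IP20D-3. Jak2 was lower by 2.47 ± 0.21 in CL11, 2.34 ± 0.21 in IP14D-101, 1.72 ± 0.21 in IP14D-1 and 2.46 ± 0.21 in IP20D-3. Jak1, the kinase most used by gp130, was lower by 1.57 ± 0.078 in CL11, 1.58 ± 0.078 in IP14D-101, 1.92 ± 0.078 in IP14D-1 and 2.03 ± 0.078 in IP20D-3. Of 5 other STAT genes, Stat4 was higher in each line, at least 4.39-fold in CL11, 3.02-fold in IP14D-101, 4.95-fold in IP14D-1 and 4.92-fold in IP20D-3, and 3 or 4 were lower. Stat5b, which like Stat5a serves growth hormone and prolactin, was lower by 2.17 ± 0.30 in CL11, 1.17 ± 0.30 in IP14D-101, 2.03 ± 0.30 in IP14D-1 and 1.86 ± 0.30 in IP20D-3. Of 13 inhibitors, 4 were higher and 4 lower in CL11, 5 and 4 in IP14D-101, 4 and 6 in IP14D-1, and 5 and 5 in IP20D-3. In CL11 8 of 13 were called, beside 54.1% of all genes (30.3% higher, 23.8% lower), and in IP14D-101 9 of 13, beside 55.1%. In IP14D-1 and IP20D-3 10 of 13 were called, beside 52.8% and 54.1% of all genes. Of all genes 22.9% were lower in IP14D-1. Nothing is read from these counts about inhibitors as a list. Ptpn6, a phosphatase that acts on Janus kinases, was 4.14-fold higher in CL11, 2.68-fold in IP14D-101, 2.34-fold in IP14D-1 and 2.82-fold in IP20D-3. Socs5, by contrast with Socs2 and Socs3, was 3.41-fold lower in CL11, 3.30-fold in IP14D-101, 3.01-fold in IP14D-1 and 3.53-fold in IP20D-3.

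**Figure D5:**
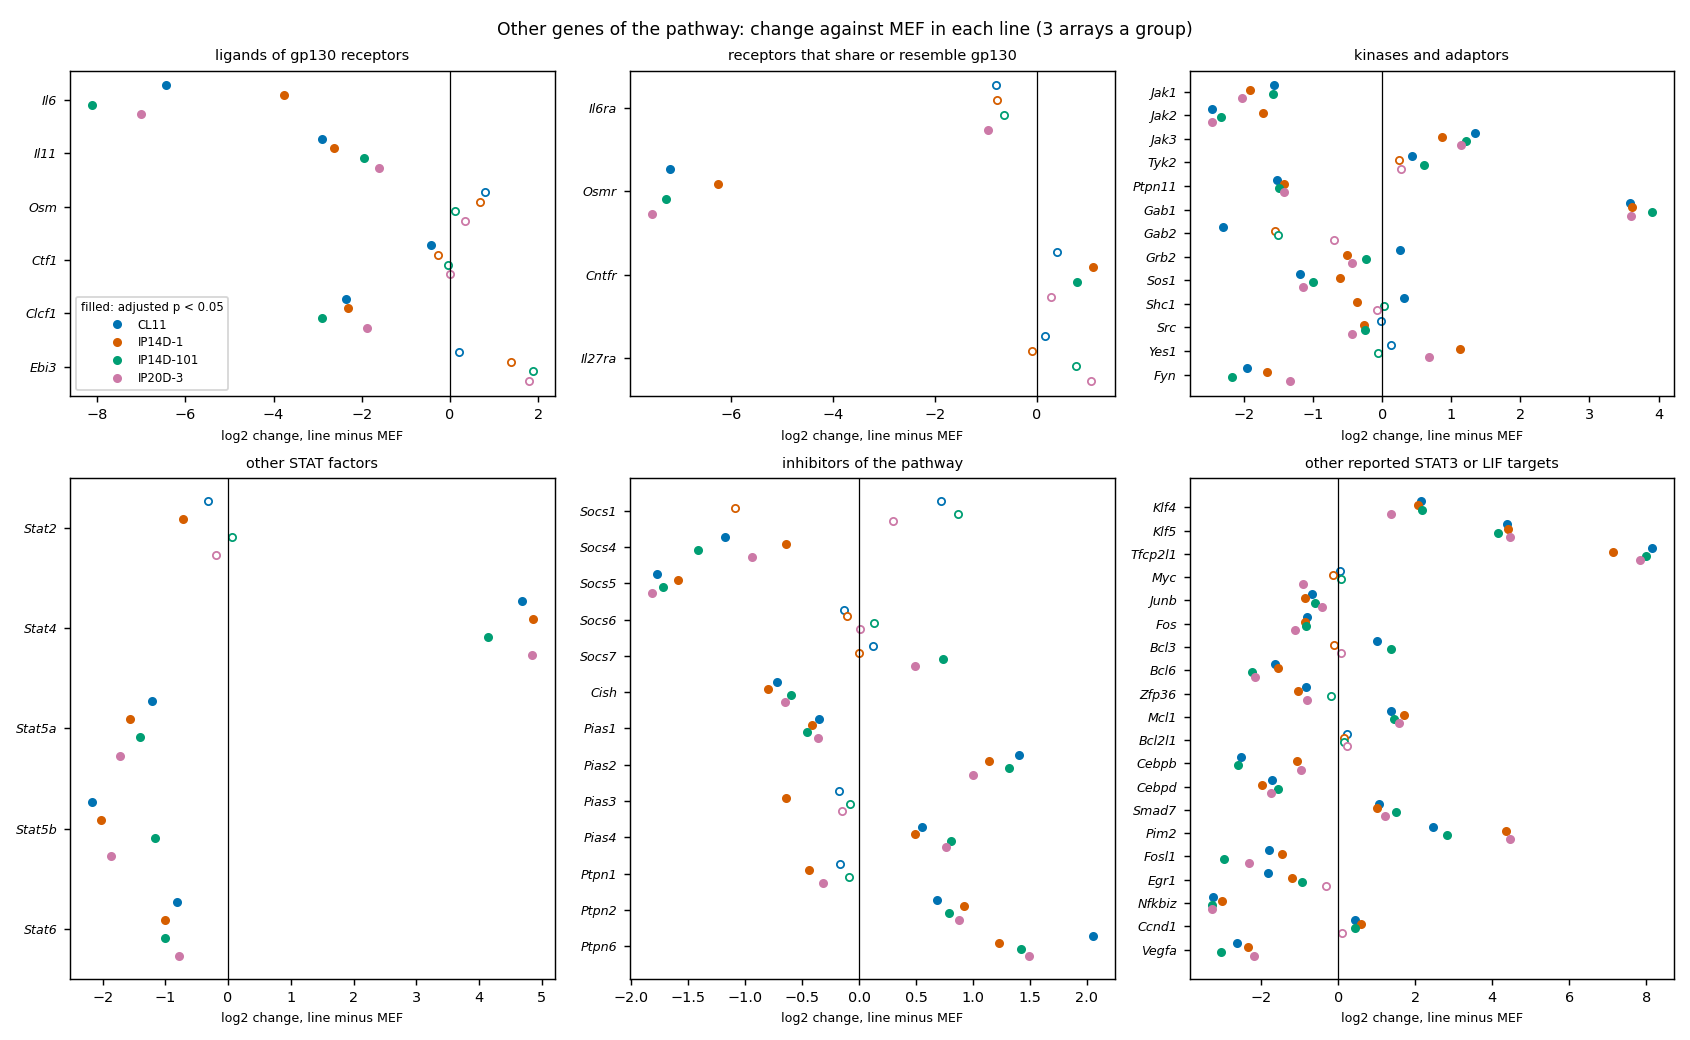
Log2 change against MEF of 61 other genes of the pathway in each line, by role, filled where the adjusted p is under 0.05 (3 arrays a group). Fitted changes of genes below background in 1 group, such as Il6, Osmr, Stat4 and Tfcp2l1, are plotted as fitted and are not measured folds. Ligands lie at or left of 0 where filled, and the other lists hold changes in both directions.

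Among 20 other genes reported to respond to STAT3 or LIF, 8 were higher and 10 lower in CL11 than in MEF, 8 and 9 in IP14D-101, 7 and 10 in IP14D-1, and 6 and 10 in IP20D-3. Of all genes 52.8% to 55.1% were called in these comparisons, 29.9% to 30.4% higher and 22.9% to 24.7% lower. Tfcp2l1, a transcription factor that acts below STAT3 in ES cell self-renewal, was below background in MEF and at least 37.9-fold higher in CL11, 34.0-fold in IP14D-101, 18.5-fold in IP14D-1 and 30.1-fold in IP20D-3. Klf5, another self-renewal factor, was higher by 4.39 ± 0.081 in CL11, 4.15 ± 0.081 in IP14D-101, 4.41 ± 0.081 in IP14D-1 and 4.47 ± 0.081 in IP20D-3. Nfkbiz, an inflammatory regulator, was lower by 3.25 ± 0.23, 3.29 ± 0.23, 3.02 ± 0.23 and 3.27 ± 0.23 in the same order. Among the lines, Pim2, the third kinase of the Pim family, was at 15.17 ± 0.048 in CL11, 15.54 ± 0.14 in IP14D-101, 17.07 ± 0.14 in IP14D-1 and 17.16 ± 0.18 in IP20D-3. Its change was 1.90 ± 0.10 for IP14D-1 against CL11 (adjusted p = 4.73e-10) and 1.63 ± 0.10 for IP20D-3 against IP14D-101 (7.06e-09), in the direction of Pim1. Cebpb, a factor of the acute phase response, was likewise higher in IP14D-1 than in CL11 by 1.43 ± 0.18 (adjusted p = 1.43e-05) and in IP20D-3 than in IP14D-101 by 1.64 ± 0.18 (3.59e-06). Bcl3, a partner of NF-kappa B, was lower by 1.13 ± 0.13 (adjusted p = 7.2e-06) and by 1.30 ± 0.13 (1.74e-06) in these comparisons, the direction of Socs3, Gbx2 and Ier3.

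Genes whose levels over the 15 arrays were most alike to those of a member were sought among 13147 genes above background. For Lifr these were Zdbf2, Kat6b and Gnl2, with Pearson correlations of 0.978, 0.975 and 0.971. Stat3 was matched most closely by Abcc1, Fkbp9 and Tmem65, at 0.984, 0.984 and 0.983. Socs3 was matched by Scnm1, Wdr61 and Tufm, at 0.955, 0.942 and 0.938. The arrays fall into 5 groups and share the gap between MEF and the lines, so these are descriptions of pattern.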

How the data were processed

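Signals of 15 Affymetrix mouse arrays were analysed. The deposited values are intensity signals on a linear scale, made by the authors with Affymetrix Expression Console and MAS5, per the submitters' processing notes; versions are not given in the sources used here. Each array was scaled to a common 2% trimmed mean of the probe sets other than the 64 controls, 16 was added and log2 taken. Of 45101 probe sets, 34945 name 1 gene, 932 name several and 9160 none; the first kind was used, and for a gene with several the brightest on average stands for it. A fit with limma 3.58.1 in R 4.3.3 (lmFit, then eBayes with a variance trend; 1 mean per group, all arrays) gave 10 contrasts. Where the dimmer group lay below background, a change is a bound: the fold of the brighter group over the dimmer with its arrays raised to background. Signals carry no counts, so the number of arrays limits precision. Each p-value sets a difference of group means only against the spread between arrays within groups. That spread was pooled over the 5 groups and drawn towards a trend over all genes. The fit was tested on simulated data. Named genes are all members, up to 4 called genes with the largest changes per pathway list and comparison, and the 3 most alike to Lifr, Stat3 and Socs3. Members and lists were chosen with earlier results of these data known. Alternatives changed scaling, pseudocount, filter, probe set choice, variance model, replicate block and left out each array. Some listed pathway genes were not analysed here.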

Additional observations from a re-analysis of the deposited data

Results flagged for a closer look

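Each of the 10 genes was called different between at least 1 pair of pluripotent lines by a test of that difference. Of all genes, 9.19% to 28.0% were called in a single pair. The share called in at least 1 pair was not counted, so nothing is read from this count. For Lif, Stat3 and Pim3 no such call held under every alternative and with each array left out. The pair with the largest called change is given for each gene. For Lif it was IP14D-1 against CL11 (0.75, 1 of 6 pairs called), for Lifr IP20D-3 against CL11 (-0.89, 3 of 6), and for Il6st IP14D-101 against IP14D-1 (0.64, 4 of 6). Stat3 differed most for IP14D-101 against IP14D-1 (0.39, 2 of 6), Socs2 for IP20D-3 against IP14D-101 (0.74, 4 of 6) and Socs3 for the same pair (-1.26, 4 of 6). Gbx2 reached -2.74 for IP20D-3 against IP14D-101 (5 of 6), Pim1 1.03 for IP14D-1 against CL11 (5 of 6), Pim3 0.73 for IP14D-101 against IP14D-1 (4 of 6) and Ier3 -2.01 for IP20D-3 against CL11 (5 of 6). Since each line is 1 line, these are differences between lines and not between ES and iPS cells as kinds.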

How the results depend on the processing

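Pseudocounts of 1, 64 and 1000 moved no call among the 100 comparisons of a member. Counts of members changed by over 1.5 times in 3 comparisons of lines. For IP14D-1 against CL11 the count was 5 without scaling. For IP14D-101 against CL11 it was 1 without scaling and 2 without a variance trend, and 2 to 4 with each array left out. For IP20D-3 against IP14D-1 it was 1 with median scaling, with the mean over probe sets or without a variance trend, 8 without scaling, and 1 to 2 with each array left out. Over all genes, IP14D-101 against CL11 gave 1313 calls without scaling and 1386 to 1950 with arrays left out, and IP20D-3 against IP14D-1 gave 7049 without scaling, 1012 with the mean over probe sets, 1025 without a variance trend and 1013 to 1285 with arrays left out. Direction turned for Lif in IP14D-1 against MEF (0.01) and Stat3 in IP14D-101 against IP14D-1 (-0.46) with the mean over probe sets, where dim probe sets weigh equally. Without scaling it turned for Stat3 in IP14D-101 against IP14D-1 (-0.09) and, in IP20D-3 against IP14D-1, for Il6st (-0.42), Stat3 (-0.27), Socs2 (-0.33) and Pim3 (-0.16), while the median of all genes there moved from -0.02 to -0.56. Socs3 in that pair turned to 0.40 on the probe set not marked as cross-hybridising, an alternative chosen after seeing the data. Median scaling moved the median of all genes by over 0.1 in most comparisons, for example to 0.32 for IP14D-101 against IP14D-1. With it the share of calls that were higher went from 48.2% to 21.6% for IP14D-1 against CL11, from 52.6% to 72.2% for IP14D-101 against CL11, from 48.2% to 30.7% for IP20D-3 against CL11, from 53.2% to 83.9% for IP14D-101 against IP14D-1, from 53.0% to 72.6% for IP20D-3 against IP14D-1, from 47.0% to 19.6% for IP20D-3 against IP14D-101 and from 55.2% to 67.3% for IP14D-101 against MEF. Replicate numbers did not pair the samples (0 of 30 same-numbered pairs correlated over 0.1). A fit with the replicate block ended the calls of Lif in IP14D-1 against CL11 (adjusted p = 0.053) and Il6st in IP14D-101 against CL11 (0.0516), added Stat3 in IP14D-1 against CL11 (-0.22, adjusted p = 0.0474), and changed no other call of a member. The cause of these differences was not tested.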
